A study of Mus musculus with 6 samples.

Results

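Type I interferon response genes were examined in microglia, the resident macrophages of the brain, that lacked the microRNA gene Mir137. The set holds 43 genes, taken by symbol from a fixed list, and all 43 are among the 24411 symbols of the count table. RNA was sequenced from primary brain microglia of 8-week-old C57BL/6J mice in 2 groups of 3 libraries, Mir137 gKO (knockout) and Mir137 gWT (wild type). Both groups share strain, tissue and age, and the labels name no treatment, sex or batch. The design text speaks of 4 mice per preparation of cells without tying animals to libraries, so that the p-values reflect library-to-library spread, which could be technical only. Totals were 14603884 to 17652976 counts in gKO libraries and 16328561 to 17306422 counts in gWT libraries. Mir137 had 0 counts in all 6 libraries, so its level does not check the labels. One library, gKO replicate 3, stood apart from the other 5 on the first principal component (91.5, against -37.7 to -3.45). Xist had 0, 0 and 8 counts in gKO libraries and 2519, 2000 and 1830 counts in gWT libraries, while the Y-linked gene Ddx3y was present in all 6 libraries. That difference and the genotype cannot be told apart.

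Type I interferons bind a receptor made of the IFNAR1 and IFNAR2 chains, whose kinases JAK1 and TYK2 phosphorylate STAT proteins. STAT2 and IRF9 are subunits of the ISGF3 complex, which binds the interferon-stimulated response element (ISRE) in the promoters of antiviral genes. In the brain, microglia both make and respond to interferon, and a tonic low level of the response is present in healthy tissue.

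Of the 43 genes, 33 have a promoter window in RefSeq (GRCm38.p6, 250 bases before to 50 bases after a transcript start). The ISRE core, searched on both strands as 2 copies of GAAA (TTTC on the opposite strand) with any 2 bases between them, occurred in windows of 15 of the 33 genes (45.5%). Over all 27025 genes with a window, 3.99% held it, and 3.44% of all 32851 windows did. The 41 windows of the 33 genes held 24 matches, 7 of which overlap another match. A match is a run of letters and was not tested as a binding site. The sequences below show this core in genes of the sensor, effector and transcription factor groups described later. Each is in lower case, 5′ to 3′ on the gene's strand, with the core in capitals. The lines of 30 bases mark 1 match each. In Oas1a and Bst2 a further match overlaps the marked one and ends in lower case.
Ifit1 (chr19:34640775-34640804, + strand): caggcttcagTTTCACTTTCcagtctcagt
Ifit3 (chr19:34583363-34583392, + strand): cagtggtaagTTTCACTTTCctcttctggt
Ifit3b (chr19:34607759-34607788, + strand): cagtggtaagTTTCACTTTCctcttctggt
Oas1a (chr5:120907526-120907555, - strand): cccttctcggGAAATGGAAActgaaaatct
Stat2 (chr10:128270266-128270295, + strand): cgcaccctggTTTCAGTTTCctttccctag
Ddx58 (chr4:40239804-40239833, - strand): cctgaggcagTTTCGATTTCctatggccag
Rsad2 (chr12:26456553-26456582, - strand): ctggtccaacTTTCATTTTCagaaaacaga
Bst2 (chr8:71537583-71537612, - strand): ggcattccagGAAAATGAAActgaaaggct
The 30 bases around the match are the same in Ifit3 and in its neighbouring near-copy Ifit3b, and both of the 2 matches in each gene lie in 30 bases that the other gene shares. Isg15 is shown whole because its 3 overlapping matches, the first starting 78 bases before the transcript start, form one uninterrupted run.
Isg15 (chr4:156200769-156201068, - strand): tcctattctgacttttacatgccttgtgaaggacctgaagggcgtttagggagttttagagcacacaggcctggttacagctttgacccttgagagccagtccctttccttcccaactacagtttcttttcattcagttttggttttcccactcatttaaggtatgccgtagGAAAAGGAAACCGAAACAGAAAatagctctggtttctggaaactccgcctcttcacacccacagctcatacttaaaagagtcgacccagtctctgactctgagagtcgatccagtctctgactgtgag
Oasl2 is shown because it is the gene with a window that DESeq2 called. Its window holds no match, which says only that these letters are not in it.
Oasl2 (chr5:114896684-114896983, + strand): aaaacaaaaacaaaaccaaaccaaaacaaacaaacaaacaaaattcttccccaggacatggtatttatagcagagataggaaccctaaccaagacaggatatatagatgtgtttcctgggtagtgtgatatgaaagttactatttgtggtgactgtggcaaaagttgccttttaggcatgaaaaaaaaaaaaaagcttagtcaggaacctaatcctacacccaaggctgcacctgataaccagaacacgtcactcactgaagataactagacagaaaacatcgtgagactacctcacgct

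Most of the 43 interferon response genes lay below their gWT level in gKO microglia, by small amounts, and Usp18, Oasl2 and Lgals3bp were the clearest. The 43 were chosen with earlier results of these data known. The same lean was not seen in 56 other tested genes induced by type I interferon (27 negative, median 0.00), described below. All 43 passed the filter on low counts. Their median log2 fold change, gKO over gWT, was -0.26, against 0.01 over all 13403 tested genes, and 34 of the 43 were negative (79.1%, against 49.1% of all tested genes). In edgeR's quasi-likelihood test, 0 of the 43 passed an adjusted p of 0.05 in either direction, where 0.231% of all tested genes were called lower and 0.395% higher. At an unadjusted p under 0.05, 4 genes were lower (Usp18, Oasl2, Lgals3bp and Isg15; 9.30%, against 5.74% of all tested genes) and 0 higher (against 5.16%). DESeq2 called 2 of the 43 lower, Usp18 and Oasl2 (4.65%, against 1.4% of all genes it tested), and 0 higher (against 1.06%). Limma-voom called 0 of the 43, where 0.246% of all tested genes were lower and 0.388% higher. With sample weights it also called 0, against 1.13% lower and 1.95% higher. The same pair are the only ones of the 43 in the authors' deposited table of 201 genes lower in gKO, out of 24411 symbols counted. Of the 43, 0 are in the authors' deposited table of 75 genes higher in gKO. Those tables were limited to a log2 fold change of at least 1 in size. The highest fitted value of the 43 was 0.26, so none could enter the higher table, nor could Lgals3bp (-0.41) enter the lower.

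**Figure D1:**
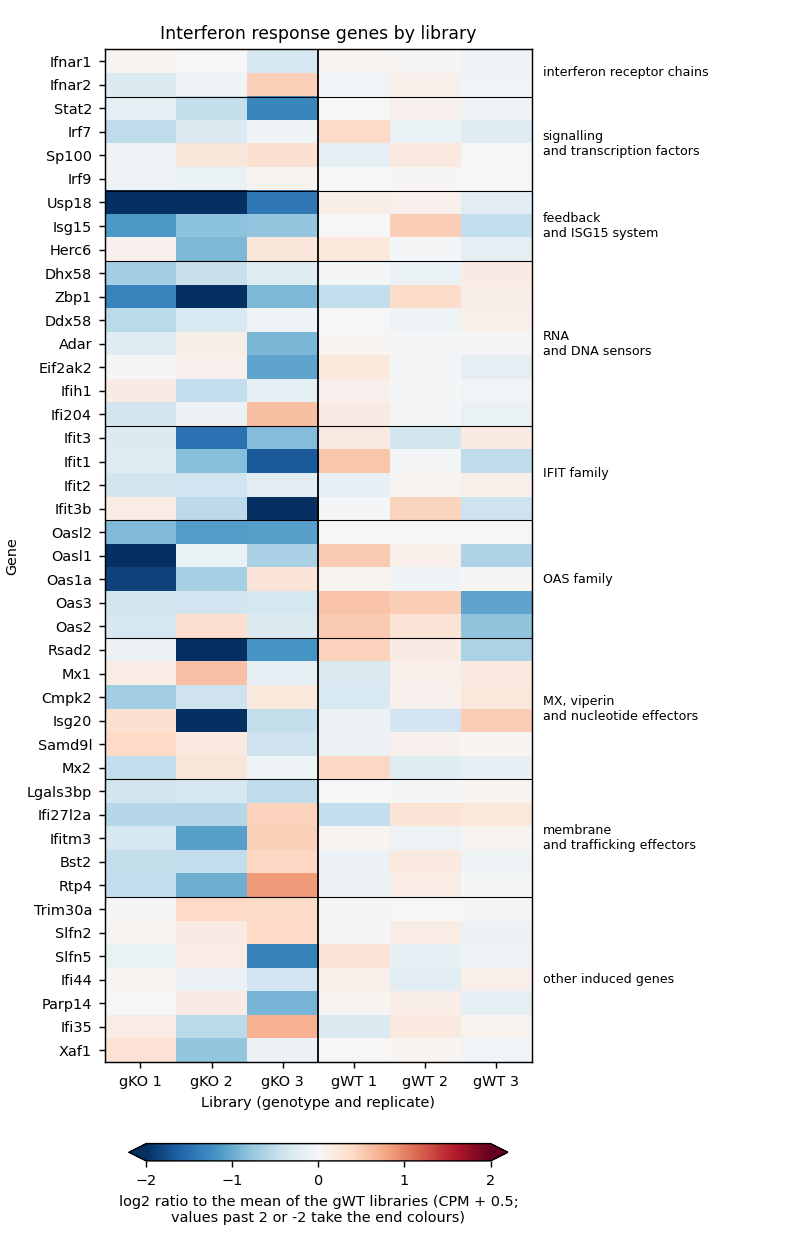
Level of each of the 43 interferon response genes (rows, grouped by role) in each library (columns), as the log2 ratio to the mean of the 3 gWT libraries, with 0.5 CPM added; blue is below and red above that mean. The row of Usp18 is blue in all 3 gKO libraries, and gKO replicate 3 is red for short genes such as Rtp4 and Ifitm3 and blue for Slfn5 and Stat2.

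In 8 of the 43 genes (18.6%) every gKO library lay below every gWT library, namely Usp18, Oasl2, Lgals3bp, Isg15, Stat2, Dhx58, Zbp1 and Ifit2. The same held for 11.3% of all tested genes. In 0 of the 43 did every gKO library lie above every gWT library, against 10.0% of all tested genes. With gKO replicate 3 left out, the groups were separated with gKO lower in 18 genes (41.9%, against 20.9% of all tested genes) and with gKO higher in 1, Samd9l (2.33%, against 20.1%). Without that library edgeR called 5 genes lower (Usp18, Oasl2, Lgals3bp, Bst2 and Ifitm3; 11.6%, against 3.82% of all tested genes) and 0 higher (against 3.99%). Without gKO replicate 1 it called 0 of the 43 (0.00727% of all tested genes lower, 0.0291% higher), and likewise without gKO replicate 2 (0.00723% lower, 0.0289% higher). Without any 1 of the gWT libraries it called 0 genes of all tested.

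Neither receptor chain differed between genotypes beyond the spread between libraries. Levels below are CPM, library-size scaled read counts with TMM factors. Ifnar1, the chain that binds TYK2, had 161.7, 155.3 and 122.3 CPM in gKO replicates 1 to 3, against 160.3, 157.3 and 148.6 CPM in the gWT replicates. The groups overlap, and the log2 fold change was -0.09 (SE 0.14, edgeR's adjusted p = 0.886). Ifnar2, the chain that binds JAK1, had 96.3, 109.7 and 163.4 CPM in gKO libraries against 112.8, 125.2 and 112.6 CPM in gWT libraries, the highest value being that of gKO replicate 3 (log2 fold change 0.07, SE 0.20, edgeR's adjusted p = 0.931). Neither sign was stable: without gKO replicate 3 the log2 fold changes were 0.02 for Ifnar1 and -0.19 for Ifnar2. Per kilobase of transcript, the level of Ifnar1 was 37.5 CPM in gKO libraries and 39.8 CPM in gWT libraries, and that of Ifnar2 was 40.4 CPM in gKO libraries and 38.4 CPM in gWT libraries.

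Among signalling and transcription factors, every gKO library lay below every gWT library in Stat2, and the groups overlapped in Irf9 and Irf7. Stat2 had 25.7, 20.8 and 11.5 CPM in gKO libraries, against 29.0, 30.8 and 27.7 CPM in gWT libraries. Every gKO library was below every gWT library, gKO replicate 3 the furthest, and the log2 fold change of -0.59 (SE 0.28) was not called (edgeR's adjusted p = 0.504). It was -0.33 without gKO replicate 3. Irf9, the DNA-binding subunit of ISGF3, had 53.1, 51.9 and 59.3 CPM in gKO libraries and 56.9, 58.2 and 56.7 CPM in gWT libraries (log2 fold change -0.06, SE 0.13, edgeR's adjusted p = 0.912). Irf7, the factor that drives interferon-alpha production, had 10.6, 12.3 and 14.4 CPM in gKO libraries and 19.9, 13.9 and 12.7 CPM in gWT libraries, and the groups overlap (log2 fold change -0.32, SE 0.25, edgeR's adjusted p = 0.720). Sp100, a nuclear body protein, had a log2 fold change of 0.16 and was not called.

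The receptor's kinase genes, Jak1 and Tyk2, are not among the 43 genes. Tyk2 had 61.6, 53.6 and 36.3 CPM in gKO libraries, below the 70.5, 68.5 and 67.8 CPM in gWT libraries (log2 fold change -0.45, SE 0.20, edgeR's adjusted p = 0.469). Jak1 had 331.2, 345.6 and 247.8 CPM in gKO libraries and 284.4, 278.9 and 290.9 CPM in gWT libraries (log2 fold change 0.11, SE 0.15, edgeR's adjusted p = 0.842).

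**Figure D2:**
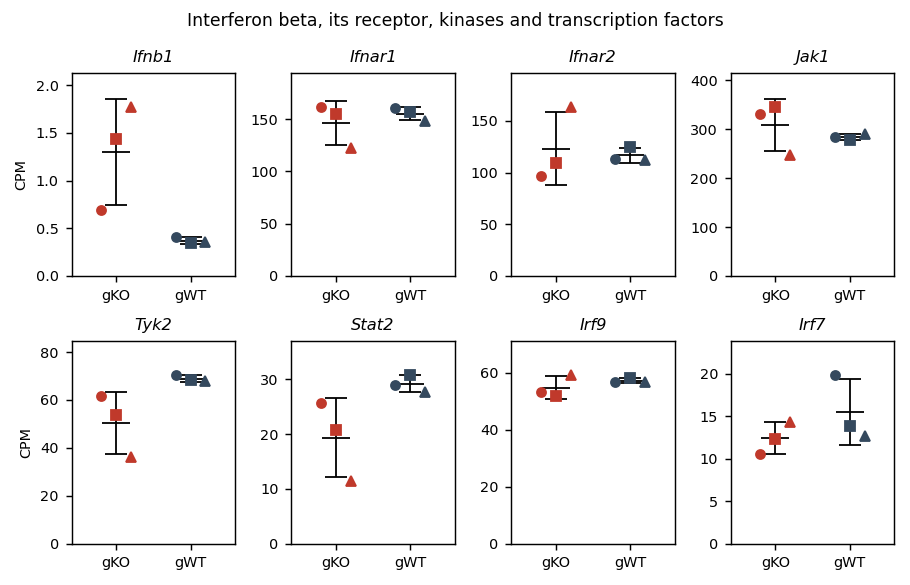
CPM of the interferon-beta gene Ifnb1, its receptor chains, their kinases and the transcription factor genes Stat2, Irf9 and Irf7 in gKO (left) and gWT (right) libraries; circle, square and triangle are replicates 1, 2 and 3, and bars are the mean and SD of 3 libraries. Stat2 lies at 11.5 to 25.7 CPM in gKO libraries, below all gWT libraries, while Ifnar1 and Irf9 overlap.

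Usp18 had the largest fold change of the 43. USP18 strips the ubiquitin-like protein ISG15 from its targets and blocks signalling at IFNAR2, so it is the main feedback brake of the pathway. Usp18 (chromosome 6, 121245906 to 121270917) had 16, 11 and 27 counts in gKO libraries, against 112, 112 and 86 counts in gWT libraries, or 0.916, 0.754 and 1.91 CPM in gKO libraries against 6.60, 6.40 and 5.04 CPM in gWT libraries. The groups do not overlap, replicate 3 being the highest in gKO. The mean was 1.19 ± 0.625 CPM in gKO libraries and 6.01 ± 0.850 CPM in gWT libraries (SD, n = 3 each), 5.03-fold lower in gKO by the fitted log2 fold change of -2.33 (SE 0.48). Its edgeR adjusted p was 0.104, the smallest of the 43. DESeq2 gave an adjusted p of 0.00130, and the authors' deposited table lists it with a log2 fold change of -2.34 and an adjusted p of 0.00109. Over 15 alternative settings the log2 fold change stayed between -2.84 and -2.10. The adjusted p ranged from 0.00130 to 0.563, with 3 of the settings under 0.05. Of those 3, the removal of each library's trend with transcript length, described below, was added after the data were examined.

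Isg15 itself (chromosome 4, 156199424 to 156200818) had 22, 25 and 25 counts in gKO libraries, against 58, 88 and 39 counts in gWT libraries. In CPM this was 1.26, 1.71 and 1.77 in gKO and 3.42, 5.03 and 2.28 in gWT, so the groups do not overlap and the gWT libraries vary most. The log2 fold change was -1.18 (SE 0.51, edgeR's adjusted p = 0.455, with 0 of 15 alternatives under 0.05). Herc6, the ISG15 ligase of the mouse, had 14.1, 6.86 and 15.6 CPM in gKO libraries and 15.4, 12.9 and 11.6 CPM in gWT libraries, and its log2 fold change of -0.13 became 0.15 without gKO replicate 2.

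Of 7 sensors of foreign or self nucleic acid, 6 were negative (median log2 fold change -0.28), and edgeR called 0. Dhx58, which encodes the regulatory helicase LGP2, had 9.16, 11.0 and 12.7 CPM in gKO libraries, against 14.7, 13.8 and 17.0 CPM in gWT libraries. The groups do not overlap (log2 fold change -0.47, SE 0.23, edgeR's adjusted p = 0.505). Ddx58, which encodes the RNA sensor RIG-I, had 17.5, 20.7 and 24.2 CPM in gKO libraries and 25.5, 24.1 and 27.5 CPM in gWT libraries, where gKO replicate 3 just passes the lowest gWT library (log2 fold change -0.31, SE 0.19). Zbp1, a sensor of Z-form nucleic acid that can trigger necroptosis, had 15, 0 and 19 counts in gKO libraries and 33, 69 and 55 counts in gWT libraries. Its log2 fold change of -2.04 rests on few counts (SE 1.04, edgeR's adjusted p = 0.542) and was -2.77 without gKO replicate 3. Ifih1, which encodes the long-RNA sensor MDA5, had 21.0, 13.1 and 16.4 CPM in gKO libraries and 19.8, 18.2 and 18.0 CPM in gWT libraries.

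The RNA-activated kinase gene Eif2ak2 had 32.6, 35.7 and 15.8 CPM in gKO libraries and 38.9, 32.6 and 29.6 CPM in gWT libraries. Adar, which edits adenosine in double-stranded RNA, had 62.3, 80.4 and 39.1 CPM in gKO libraries and 76.2, 72.8 and 72.5 CPM in gWT libraries. In both genes gKO replicate 3 was the lowest library and the other gKO libraries overlap gWT. Their log2 fold changes were -0.26 and -0.28 with all libraries, and 0.01 and -0.06 without gKO replicate 3. Ifi204, a DNA-binding protein of a family with close copies, had a log2 fold change of 0.10 and some fractional counts, so its level is uncertain.

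The IFIT genes, whose proteins bind viral RNA and block its translation, all had negative fold changes, and edgeR called 0 of the 4. Ifit3 had 6.70, 2.61 and 4.31 CPM in gKO libraries, against 9.43, 6.29 and 9.43 CPM in gWT libraries (log2 fold change -0.88, SE 0.39, edgeR's adjusted p = 0.474). Ifit3b had 1.72, 0.892 and 0 CPM in gKO libraries and 1.47, 2.23 and 0.996 CPM in gWT libraries (log2 fold change -0.83, and -1.79 without gKO replicate 1). The deposited counts of both are fractional, as reads shared between near-identical copies are split, so the division between them is uncertain. Their sum was 8.42, 3.50 and 4.31 CPM in gKO libraries, against 10.9, 8.52 and 10.4 CPM in gWT libraries, and the groups of that sum just do not overlap. Ifit2 had 7.44, 7.27 and 8.27 CPM in gKO libraries, all below the 8.66, 10.1 and 10.5 CPM in gWT libraries (log2 fold change -0.35, SE 0.24). Ifit1 had 2.58, 1.51 and 0.636 CPM in gKO libraries and 4.83, 3.03 and 2.05 CPM in gWT libraries, and the groups overlap (log2 fold change -1.06, SE 0.64). Summed over the 4 genes, the level was 14.6 ± 3.32 CPM in gKO libraries and 23.0 ± 1.4 CPM in gWT libraries (SD, n = 3 each).

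All 5 genes of the oligoadenylate synthetase (OAS) family, which signal through RNase L or act without enzyme activity, had negative fold changes, with a median of -0.73. Oasl2 (chromosome 5, 114896936 to 114912234) had 90, 63 and 62 counts in gKO libraries, against 170, 172 and 169 counts in gWT libraries. In CPM, gKO lay at 5.15, 4.32 and 4.38 and gWT at 10.0, 9.83 and 9.90, tightly grouped within each genotype. The mean was 4.62 ± 0.464 CPM in gKO libraries and 9.91 ± 0.0943 CPM in gWT libraries (SD, n = 3 each), 2.14-fold lower in gKO (log2 fold change -1.10, SE 0.25, edgeR's adjusted p = 0.145). DESeq2 called it (adjusted p = 0.0234), and the authors' deposited table gives a log2 fold change of -1.10 with an adjusted p of 0.0177. Over the 15 alternatives the log2 fold change lay between -1.19 and -1.06 and the adjusted p between 0.0234 and 0.657, with 2 of them under 0.05.

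The other OAS genes were more variable. Oas1a had 2.75, 6.86 and 13.5 CPM in gKO libraries, spread over a wide range, and 11.7, 10.5 and 11.4 CPM in gWT libraries (log2 fold change -0.55, SE 0.49). Without gKO replicate 3 it was -1.24 (edgeR's adjusted p = 0.0512), and without gKO replicate 1 it was -0.14. The counts of Oas1a are fractional, and it has near-copies such as Oas1g. Oasl1, which in mice represses translation of IRF7, had 4, 39 and 24 counts in gKO libraries and 76, 56 and 30 counts in gWT libraries (log2 fold change -1.04, SE 0.82; -1.72 without gKO replicate 2). Oas3 had 17, 14 and 14 counts in gKO libraries and 39, 38 and 7 counts in gWT libraries, and Oas2 had 69, 97 and 58 counts in gKO libraries and 130, 110 and 47 counts in gWT libraries. In Oas2 and Oas3 gWT replicate 3 was the lowest of the 6 libraries by CPM, so the groups overlap.

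**Figure D3:**
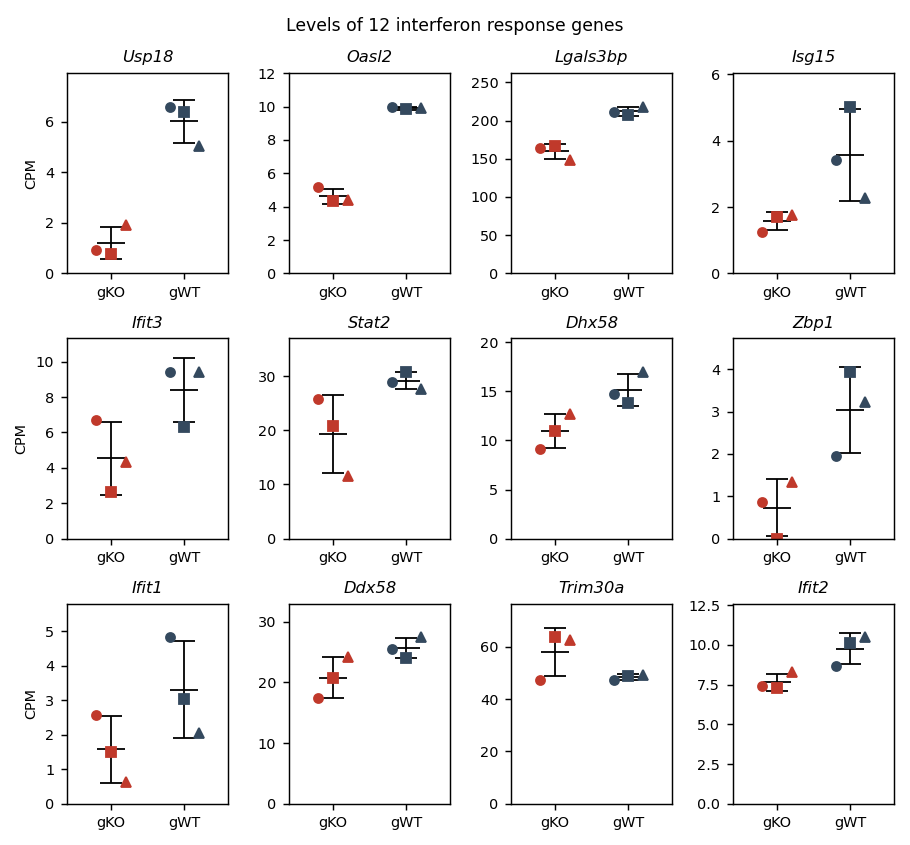
CPM of the 12 interferon response genes with the smallest unadjusted p in gKO (left) and gWT (right) libraries; symbols are replicates 1 (circle), 2 (square) and 3 (triangle), bars are mean and SD of 3 libraries, and each axis starts at 0. Usp18 lies at 0.754 to 1.91 CPM in gKO libraries and 5.04 to 6.60 CPM in gWT libraries, and Trim30a is the one gene whose gKO mean is the higher.

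Effectors that act on viral particles or nucleotides did not share a direction. The GTPase genes Mx1 and Mx2, of which Mx1 carries an inactivating deletion in C57BL/6 mice, had 10.0, 13.7 and 7.85 CPM (Mx1) and 3.89, 6.79 and 5.23 CPM (Mx2) in gKO. In gWT, Mx1 had 7.25, 9.66 and 10.3 CPM and Mx2 had 7.66, 4.69 and 4.98 CPM, and both genes overlap between groups (log2 fold changes 0.22 and -0.12). Rsad2, which encodes viperin, had 33, 1 and 9 counts in gKO libraries and 52, 42 and 20 counts in gWT libraries (log2 fold change -1.33, SE 1.01). That value was -2.63 without gKO replicate 1 and -0.80 without gKO replicate 2. Its genomic neighbour Cmpk2, a mitochondrial nucleotide kinase, had a log2 fold change of -0.30 (SE 0.42). The exonuclease gene Isg20 had 36, 0 and 14 counts in gKO libraries and 24, 19 and 41 counts in gWT libraries (log2 fold change -0.67, and -1.71 without gKO replicate 1). The translation inhibitor Samd9l had a log2 fold change of 0.10.

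Lgals3bp, a secreted glycoprotein that binds galectins, was the most abundant of the 43. It had 164.1, 166.8 and 148.7 CPM in gKO libraries, against 211.4, 206.9 and 218.4 CPM in gWT libraries. The groups are far apart for a small change, 1.33-fold lower in gKO (log2 fold change -0.41, SE 0.12, edgeR's adjusted p = 0.231). It was called without gKO replicate 3 (adjusted p = 0.00561), and its adjusted p under limma-voom with sample weights was 0.0502. The mean level per kilobase of transcript was 68.6 CPM in gKO libraries and 91.1 CPM in gWT libraries.

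For the other membrane effectors gKO replicate 3 was the highest library. Bst2, which encodes the virus tether tetherin, had 41.7, 41.5 and 78.0 CPM in gKO libraries, and 53.9, 66.9 and 55.1 CPM in gWT libraries. Replicate 3 was above all gWT libraries and the other gKO libraries below them (log2 fold change -0.13, SE 0.26, edgeR's adjusted p = 0.910; -0.50 and adjusted p = 0.0272 without replicate 3). Ifitm3, which blocks virus entry from endosomes, had 33.8, 19.9 and 59.7 CPM in gKO libraries and 44.1, 39.7 and 44.2 CPM in gWT libraries (log2 fold change -0.17, SE 0.34, edgeR's adjusted p = 0.907; -0.67 and adjusted p = 0.0451 without replicate 3). The same shape held for Rtp4, a receptor transporter, at 5.61, 3.91 and 15.1 CPM in gKO libraries and 7.42, 9.03 and 8.02 CPM in gWT libraries (log2 fold change 0.01, and -0.78 without replicate 3). Ifi27l2a, a short interferon-induced gene, had 10.0, 10.0 and 21.0 CPM in gKO libraries and 10.6, 18.4 and 17.6 CPM in gWT libraries.

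Of the 7 remaining induced genes, Trim30a, a restraint on Toll-like receptor signalling in mice, and Slfn2, a quiescence factor of immune cells, had the highest fold changes. Trim30a had 47.4, 63.8 and 62.7 CPM in gKO libraries and 47.4, 48.9 and 49.2 CPM in gWT libraries (log2 fold change 0.26, SE 0.16, edgeR's adjusted p = 0.633), with some fractional counts from close copies. Slfn2 had a log2 fold change of 0.21 (SE 0.16) and Ifi35 one of 0.17. Slfn5, Parp14, Ifi44 and Xaf1 had log2 fold changes from -0.33 to -0.14 and were not called.

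**Figure D4:**
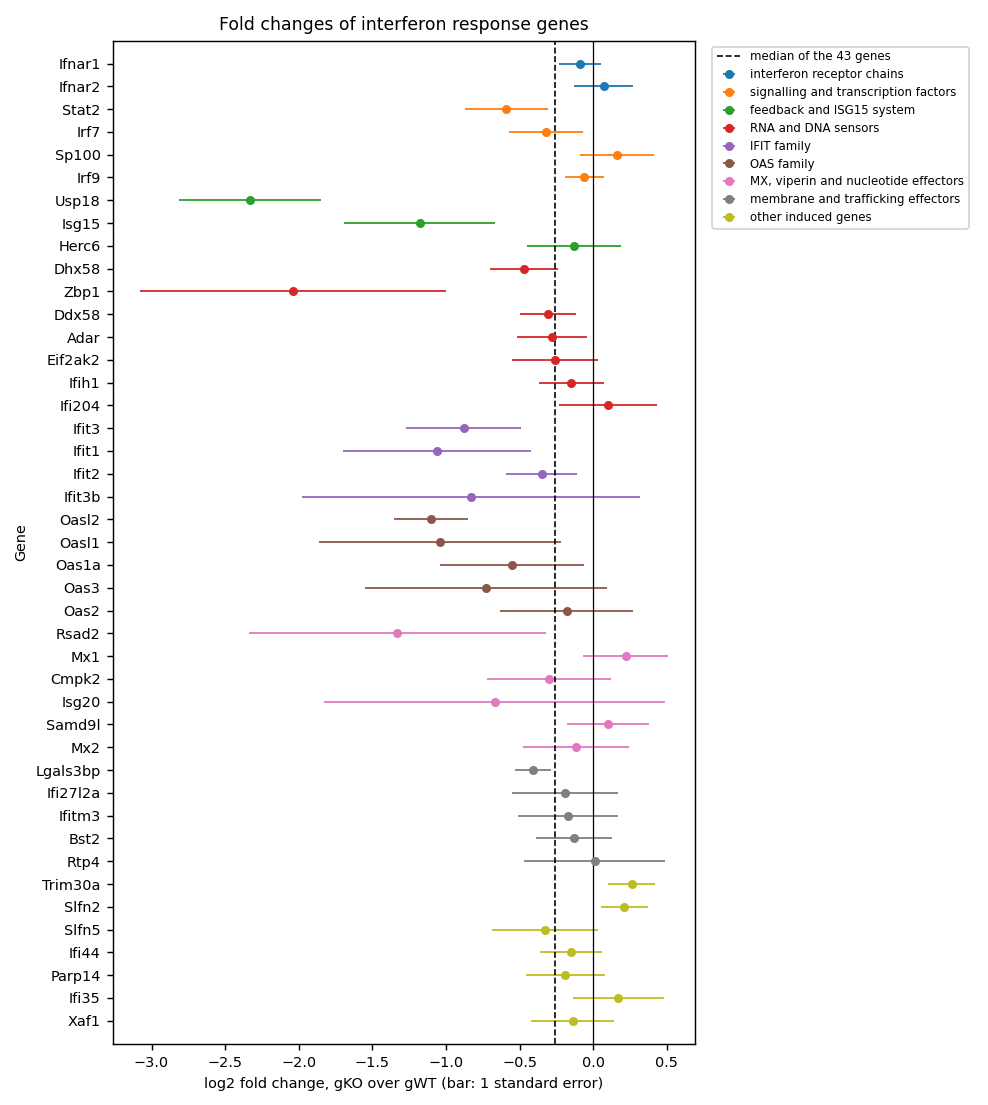
Log2 fold change, gKO over gWT, of the 43 interferon response genes with bars of 1 standard error from the edgeR fit, coloured by role; the dashed line is their median of -0.26. Values run from -2.33 for Usp18 to 0.26 for Trim30a, and all IFIT and OAS genes lie left of 0.

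Levels in gKO replicate 3, relative to the other gKO libraries, varied with transcript length. Against the mean of gKO replicates 1 and 2, this library was below in 13 of the 21 interferon response genes with a longest transcript over 2708 bases and in 3 of the other 22. Among all tested genes with a length, it was below that mean in 5243 of 7757 over 2708 bases and in 1168 of the other 5165. The log2 ratio of replicate 3 to that mean was -1.36 for Slfn5 (5979 bases), -1.01 for Parp14 (7417 bases) and -0.97 for Stat2 (4397 bases). It was 1.19 for Ifitm3 (678 bases), 1.03 for Ifi27l2a (463 bases) and 0.90 for Bst2 (792 bases). Across the 43 genes, which share these libraries and are not independent, Spearman's rho of that ratio with length was -0.64, and across 12922 tested genes with a length it was -0.57. Removing each library's trend with length, an alternative added after the data were examined, left the median of the 43 genes at -0.28. Usp18 was then called (log2 fold change -2.44, edgeR's adjusted p = 0.0221), where 0.992% of all tested genes were lower and 1.15% higher. Oasl2 then had an adjusted p of 0.0656 and Lgals3bp one of 0.102.

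**Figure D5:**
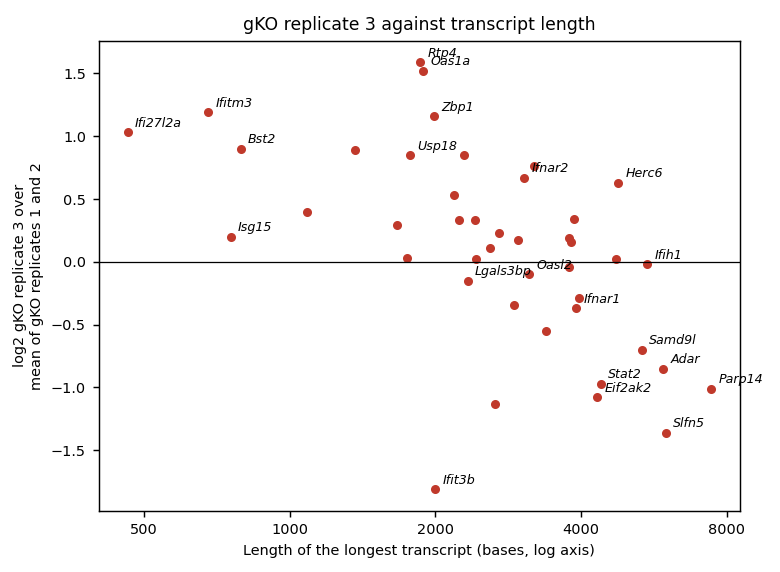
Log2 ratio of gKO replicate 3 to the mean of gKO replicates 1 and 2 (vertical axis, CPM with 0.5 added) against the length of the longest annotated transcript (horizontal, log axis) for the 43 interferon response genes. Short genes such as Ifitm3 lie above 0 and long genes such as Slfn5 and Parp14 below it.

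Median levels lay below gWT in each gKO library. The median log2 ratio of the 43 genes to the gWT mean, with 0.5 CPM added, was -0.28, -0.39 and -0.24 in gKO replicates 1, 2 and 3, against 0.01, 0.04 and -0.05 in the gWT replicates. Over all tested genes the corresponding medians lay between -0.02 and 0.00. A gKO library was the lowest of the 6 in 11, 16 and 11 of the 43 genes for replicates 1, 2 and 3 (25.6%, 37.2% and 25.6%). Among all tested genes the shares were 15.8%, 19.2% and 31.8%. A gWT library was the lowest in 2, 0 and 3 of the 43 (4.65%, 0% and 6.98%), against 14.1%, 7.34% and 9.91%. The gKO replicates were the highest in 9.3%, 9.3% and 27.9% of the 43, against 15.7%, 18.7% and 31.3%. Genes with the ISRE core had a median log2 fold change of -0.55 (14 of 15 negative) and the 18 genes with a window but no match one of -0.15 (13 of 18 negative). This split is a description and was not tested.

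Of 18 type I interferon genes, 17 had 0 counts in every library. The exception, Ifnb1, encodes interferon-beta and had 12, 21 and 25 counts in gKO libraries, against 7, 6 and 6 counts in gWT libraries. The groups do not overlap at this low level (log2 fold change 1.79, SE 0.87, edgeR's adjusted p = 0.513). In a further list of 56 tested genes induced by type I interferon and not among the 43, 27 were negative and the median was 0.00. EdgeR called 1 of them, the chemokine gene Cxcl10, higher in gKO, where 0.395% of all tested genes were called higher. Cxcl10 had 30.6, 38.2 and 61.3 CPM in gKO libraries and 10.8, 13.7 and 10.3 CPM in gWT libraries (log2 fold change 1.90, SE 0.28, edgeR's adjusted p = 0.0326). Its adjusted p was 0.000213 without gKO replicate 3, and 0.0757 to 0.297 when 1 of the other libraries was left out.

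Counts at an unadjusted p in the lists that follow cover both directions. Over all tested genes, edgeR gave an unadjusted p under 0.05 to 5.74% lower and 5.16% higher. It called 0.231% lower and 0.395% higher, and DESeq2 called 1.4% lower and 1.06% higher. EdgeR called 0 of 18 genes of upstream sensing, 9 of them negative (median -0.04, with 3 at an unadjusted p under 0.05). DESeq2 called 1 of these higher and 0 lower. The RNA receptor gene Tlr7, on the X chromosome, had 495.8, 534.5 and 472.3 CPM in gKO libraries and 329.5, 304.9 and 323.2 CPM in gWT libraries, well apart (log2 fold change 0.65, SE 0.12, edgeR's adjusted p = 0.0647). The kinase gene Tbk1 had a log2 fold change of 0.44, and the factors Irf3 and Irf5 had -0.09 and 0.08. Of 18 tested JAK-STAT genes and inhibitors, edgeR called 0 (median 0.02; 1 at an unadjusted p under 0.05) and DESeq2 called 0. Of 24 tested genes of the interferon-gamma receptor and response, edgeR called 0 (median 0.06; 7 at an unadjusted p under 0.05) and DESeq2 1 higher. The antigen presentation genes H2-Aa and Cd74, which had the smallest p there, were positive (log2 fold changes 0.82 and 0.49). The receptor genes Ifngr1 and Ifngr2 had log2 fold changes of 0.23 and -0.34. Interferon-gamma and the type III genes Ifnl2 and Ifnl3 had 0 counts in every library, and the receptor genes Il10rb and Ifnlr1 had log2 fold changes of -0.12 and 1.18, neither called; that of Ifnlr1 was 0.44 without gKO replicate 2.

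Markers of microglia, the labelled cell type, were detected in 10 of 10 cases, with a summed level of 39355.7 to 41758.3 CPM in gKO libraries and 38117.5 to 40976.4 CPM in gWT libraries. Markers of other cells moved with genotype: 12 of 12 endothelial genes were detected, at 412.4 to 516.9 CPM in sum in gKO and 799.9 to 1033.4 CPM in gWT libraries. Fibroblast markers, 9 of 10 detected with Dpt at 0, summed to 352.4 to 539.1 CPM in gKO libraries and 1169.1 to 1534.9 CPM in gWT libraries. For the 10 mural markers the sum was 68.6 to 130.3 CPM in gKO libraries and 223.8 to 315.7 CPM in gWT libraries. The 10 astrocyte markers summed to 272.0 to 313.0 CPM in gKO libraries and 374.9 to 414.5 CPM in gWT libraries. All 14 neutrophil genes in the table were detected, at 932.1 to 1357.2 CPM in gKO libraries and 593.1 to 707.8 CPM in gWT libraries. The 12 monocyte markers, all detected, summed to 667.7 to 920.1 CPM in gKO libraries and 918.8 to 1143.4 CPM in gWT libraries. Gene by gene the monocyte list went the other way from its sum, with 2 of 12 negative and a median log2 fold change of 0.56. EdgeR called 2 of the 12 higher in gKO, Chil3 and Hp, against 0.395% of all tested genes, and 0 lower. The 10 border macrophage markers overlapped (2487.5 to 3663.7 CPM in gKO libraries and 3284.6 to 3394.1 CPM in gWT libraries). Of the markers of plasmacytoid dendritic cells, which make interferon, Klk1 and Dntt were at 0, and the sum of the list, which holds Bst2 and Irf8, was 546.8 to 629.0 CPM in gKO libraries and 653.9 to 670.0 CPM in gWT libraries. The part of these differences in the interferon response values was not tested, and in bulk samples fewer cells of a type and less RNA per cell cannot be told apart.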

How the data were processed

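RNA-seq was available for 3 gKO and 3 gWT libraries. The authors deposited expected counts per gene symbol, not normalized, and lists of genes past an adjusted p-value threshold with a mean signal of normalized counts, a log2 fold change, its standard error and statistic (scores), and raw and adjusted p-values, per the file headers. Those lists were also limited to a log2 fold change of at least 1 in size. STAR 2.7.9a, RSEM, DESeq2, GRCm38 and mm10 are listed, with no role or order, per the submitters' processing notes. The sources used here give neither annotation nor strand setting, so overlapping and antisense genes cannot be told apart. Fractional values made up 2.64% to 3.65% of a library's genes. Columns were mapped to samples by genotype and replicate number in their names.

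After rounding, the expected counts were fitted in edgeR 4.0.16 under R 4.3.3 (TMM scaling, default filter, robust quasi-likelihood test on genotype, Benjamini-Hochberg adjustment over 13403 genes, threshold 0.05). The standard error is the absolute log2 fold change over the square root of F. Alternatives were RLE and upper-quartile scaling, other filters, DESeq2 1.42.0, limma-voom 3.58.1 with and without sample weights, a replicate block and each library left out. The test was tried on simulated counts first. Lengths are of the longest transcript in GENCODE M21's basic set, matched for 23365 of 24411 symbols, and coordinates are 1-based on GRCm38. No pair of same-group libraries was close enough to be 1 library deposited more than once. The genes and lists were chosen with earlier results of these data known. Values in every library were given for genes that an alternative tool called, the 12 smallest p, the 5 most abundant and a set chosen by role; values of other genes were added after they were seen. One gene of that rule is not reported here.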

Additional observations from a re-analysis of the deposited data

How the results depend on the processing

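The 43 genes had 15 alternatives each where they could be tested; Oas3 did not pass the filter of at least 1 CPM in 3 libraries. Of these 644 values, 604 kept both direction and side of the threshold, 8 became calls with the same sign, and 32 in 16 genes changed sign, the cause not being tested. Of the 43 genes, DESeq2 called 2 lower, removal of the length trend 1, and leaving out single libraries 0 to 5. No alternative called one of the 43 higher. Their median lay between -0.35 and -0.19 when 1 library was left out. Over all genes, edgeR called 31 lower and 53 higher; the counts were 47 lower with no filter, 223 lower and 168 higher with DESeq2, 152 lower and 261 higher with limma-voom and sample weights, 133 lower and 154 higher with the length trend removed, and 0 to 528 lower and 0 to 551 higher with 1 library left out.

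With the replicate number as a block, edgeR called 7 genes lower and 11 higher, and the adjusted p of Cxcl10 was 0.0618. Same-numbered libraries share only a number: their deviations correlated at 0.0529, -0.0475 and 0.0153, and not every library correlated best with its own number.

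Rtp4, at 0.01 with all libraries, had -0.02 with upper-quartile scaling, 0.00 with no filter, -0.26 with limma-voom, -0.68 with sample weights, -0.22 with the block and -0.13 without the length trend. With sample weights, Ifi204 (-0.18), Ifi35 (-0.17), Ifnar1 (0.01), Ifnar2 (-0.14), Oas2 (0.03) and Parp14 (0.00) changed sign too. When 1 library was left out, log2 fold changes ranged from -0.50 to 0.03 for Bst2, -0.34 to 0.13 for Mx2, -0.09 to 0.30 for Samd9l, -0.35 to 0.15 for Herc6, -0.34 to 0.00 for Ifih1, -0.67 to 0.13 for Ifitm3, -0.02 to 0.38 for Mx1, -0.43 to 0.10 for Xaf1 and -0.48 to 0.01 for Eif2ak2. The ranges were -0.27 to 0.30 for Ifi204, -0.18 to 0.43 for Ifi35, -0.16 to 0.02 for Ifnar1, -0.19 to 0.22 for Ifnar2, -0.41 to 0.06 for Parp14, -0.51 to 0.11 for Oas2 and -0.78 to 0.34 for Rtp4.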
